A study of Arabidopsis thaliana with 8 samples.

Results

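The probe sets of genes encoded in the mitochondrial genome were followed in Arabidopsis seedlings kept in constant red light. A probe set was taken where the table that pairs probe sets with genes gives it a mitochondrial gene, whatever its signal. This gave 35 of the 22810 probe sets on the array. Seedlings of the *fhy3-4* mutant and of the wild type, both in the No-0 background, had been entrained for 7 days in cycles of 12 h white light and 12 h dark before transfer to constant red light. Whole seedlings, about 100 per sample, were harvested after 24, 32, 40 or 48 h of red light. Affymetrix ATH1 arrays were used, 1 per sample, giving 4 of *fhy3* and 4 of wild type. With the earlier cycles carried forward, 24 and 48 h fall at subjective dawn, 32 h in the subjective afternoon and 40 h in the subjective night. No genotype has a second array at any time. All of the *fhy3* arrays come from 1 allele, and neither genotype was sampled in another light condition here.

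Plant mitochondria keep a small genome of their own, which encodes core subunits of the respiratory chain, proteins that mature cytochrome c, and some ribosomal proteins. The respiratory chain passes electrons through complexes I, III and IV and uses the resulting proton gradient to drive ATP synthase, and each of these complexes joins mitochondrial subunits to many more that are encoded in the nucleus. Mitochondrial genes are transcribed by phage-type RNA polymerases made in the nucleus, and their transcripts are then spliced, edited and trimmed. FHY3 is a nuclear transcription factor derived from a transposase that acts in phytochrome A signalling and in light input to the circadian clock.

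The 35 probe sets named 27 of the 32 protein-coding gene symbols of the mitochondrial genome in the gene table. The other five, *nad3*, *atp4*, *atp6*, *atp8* and *ccmC*, were not paired with a probe set and are not analysed here. Complex I had 17 probe sets, 9 of them for *nad1*, ribosomal proteins had 6, cytochrome c maturation 4, complex IV 3, ATP synthase 2, and complex III, the maturase *matR* and the transporter *mttB* 1 each. Of the 35, 23 were paired with a single mitochondrial gene and 1 with both *rps3* and *rpl16*. A further 11 were paired with a mitochondrial gene and a gene on chromosome 2, which carries a large copy of the mitochondrial genome in Arabidopsis, so that the signals of the copies cannot be told apart. These 11 include every probe set of *cob*, *cox3*, *atp1*, *atp9*, *rpl2*, *rpl5*, *rps4*, *rps7* and *rps12*. The pairing is that of the table, and probe sequences were not examined. A pairing with a single gene thus does not show that a probe set misses the copy on chromosome 2.

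The signals were low. The median mean signal was 47.5 for the mitochondrial probe sets, against 1815 for the 77 probe sets of chloroplast genes and 143 for all probe sets without controls. These are comparisons of sets, since the signals of single probe sets cannot be ranked against each other. Labelling began from poly(A) tails, which plant mitochondrial transcripts mostly lack, so the signals report the part of each transcript pool that was primed. In whole seedlings, fewer cells rich in mitochondria and less RNA per cell cannot be told apart. For the test, signals under 20.7, which is 5% of the mean of all probe sets, were set to that value, and a probe set entered where its mean reached it in at least 1 genotype. Of the 35, 27 passed. The 8 that did not were *ccmFN2*, *nad7*, *matR*, *nad2*, 1 of the 2 probe sets of *nad5*, 2 of those of *nad1* alone and 1 shared by *nad1* and AT2G07701. All counts of signal order below use the unfloored signals of all 35.

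The array means lay between 402.4 and 438.8, the highest being the *fhy3* array at 40 h, and Spearman correlations between arrays were 0.953 to 0.991. The probe set medians over all probe sets without controls were 137.8, 144.8, 142.9 and 139.1 in *fhy3* at 24, 32, 40 and 48 h, and 136.6, 132.3, 132.03 and 140.9 in wild type. The control for 25S ribosomal RNA read 4292, 4316, 7053 and 4936 in *fhy3*, and 3703, 5355, 2666 and 5214 in wild type, so that the 40 h array was the highest in *fhy3* and the lowest in wild type. The ratio of 3′ to 5′ actin signal was 2.40, 2.51, 3.11 and 2.64 in *fhy3*, and 2.88, 3.16, 3.31 and 3.20 in wild type, highest at 40 h in each genotype. That of GAPDH lay between 1.23 and 1.37 in *fhy3* and between 1.27 and 1.42 in wild type, also highest at 40 h in each. That of ubiquitin was highest at 40 h in *fhy3* (1.14) but at 24 h in wild type (1.14, against 1.09 at 40 h). *EXPA7*, an expansin gene of root hairs and the 1 root marker of 6 that could be named, read between 78.7 and 153.7 in *fhy3* and between 18.5 and 52.8 in wild type, where 40 h was the lowest (log2 difference 1.99, SE 0.23, adjusted p = 0.0383 from limma). *LHCB4.1*, an antenna protein gene of green tissue, read between 8471 and 9450 in *fhy3* and between 8959 and 9957 in wild type. *PSAN*, a photosystem I gene and the other of the 2 green tissue markers named out of 6, read between 3913 and 4779 in *fhy3* and between 3587 and 6158 in wild type, lowest at 40 h in both genotypes. None of the 4 seed markers could be named. The part that RNA quality or tissue make-up has in the results below was not tested. The table pairs no probe set with *FHY3* itself, so the genotype labels were not checked on the mutated gene.

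The main pattern was a high signal at 40 h in both genotypes. The median signal of the 35 probe sets was 27.97, 31.1, 60.8 and 25.97 in *fhy3* at 24, 32, 40 and 48 h, and 41.0, 31.0, 84.7 and 45.3 in wild type. In each genotype the 40 h array stood above all others, while the arrays at 24 and 48 h lay close together. The chloroplast medians were 1801, 1625, 1433 and 1437 in *fhy3*, lowest at 40 h, and 1852, 1922, 2163 and 1787 in wild type, highest at 40 h.

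**Figure D1:**
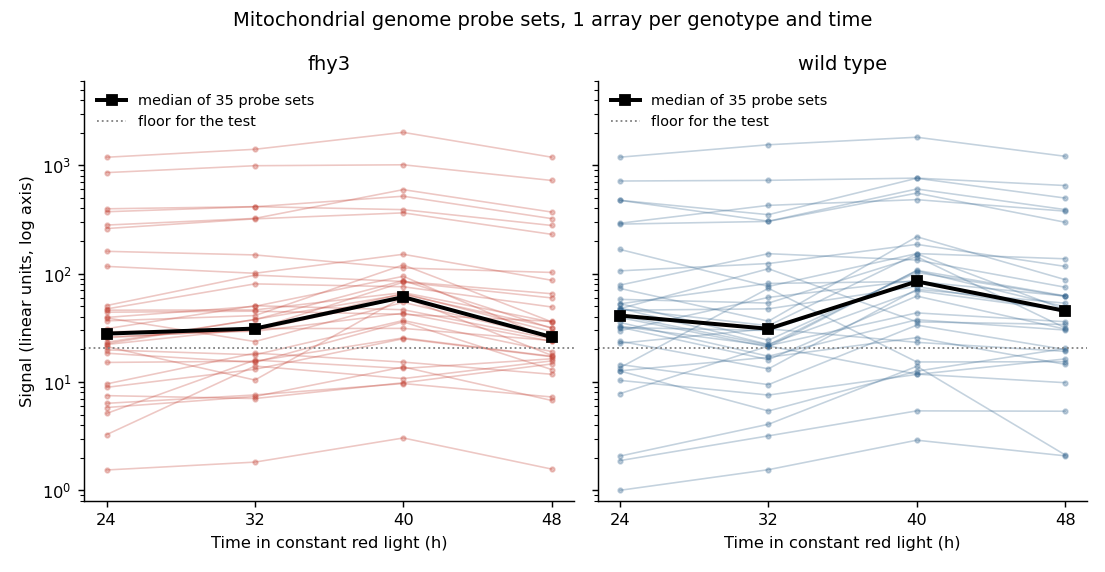
Signals of the 35 mitochondrial genome probe sets on a log axis against time in constant red light (h), with *fhy3* on the left and wild type on the right. Thin lines join the 4 arrays of a probe set, the black line is the median (60.8 at 40 h in *fhy3*, 84.7 at 40 h in wild type), and the dotted line is the floor of 20.7 used in the test. There is 1 array per point.

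Of the 35 probe sets, 25 had their highest signal at 40 h in *fhy3*, where 34.6% of all probe sets did, and 27 in wild type, where 21.9% did. In 23 the 40 h signal was the highest in both genotypes, against 9.85% of all probe sets. These 23 cover 18 distinct genes or gene pairs. The same was true of 19 of the 77 chloroplast probe sets. Among the 23 paired with a single gene, 15 were highest at 40 h in both genotypes, and among the 27 that passed the filter 19 were. The others of the 35 include signals near the bottom of the scale. In *fhy3* 29 of the 35 were higher at 40 h than on both dawn arrays, against 41.8% of all, and in wild type 30 were, against 33.9% of all.

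On the log2 scale the median change from subjective dawn to 40 h was 0.58 in *fhy3* and 0.58 in wild type, and 0.61 for the average of the genotypes. Over the 23 probe sets paired with a single gene it was 0.31 in wild type and 0.38 on average. With a floor at 20% of the mean, under which most of these signals lie, it was 0 in *fhy3*, 0.0171 in wild type and 0.00703 on average. Over all 18108 probe sets tested these medians were 0.03, −0.02 and 0.00, and over the chloroplast probe sets 0.08, 0.16 and 0.11. Of the 35, 28 had an average change above 0, 1 below and 6 at 0, where the signals at 24, 40 and 48 h were all at the floor. The change averaged over genotypes, a contrast chosen after the signals had been seen, passed the test for 5 of the 27 tested, all of them higher at 40 h, against 0.884% of all probe sets called higher and 2.79% called lower. They were *nad9*, *nad4*, 1 probe set of *nad1*, and those of *atp1* and *rps7*, both shared with a nuclear gene. Which probe sets are called depends on the processing. Without the filter on low signals only *nad4* of these 5 kept its call, among 4 called. With the stricter filter 3 of them did, among 5 called, while the *nad1* probe set and that of *rps7* lay below that filter and were not tested. The share of all probe sets called under these settings is not given here. At an unadjusted p under 0.05, 20 of the 27 were higher at 40 h and 0 lower, against 11.8% of all probe sets higher. Within a single genotype limma called none, against 0.773% of all probe sets in *fhy3* and 0.0166% in wild type. Taken one genotype at a time, 17 were higher at an unadjusted p under 0.05 in *fhy3*, against 12.3% of all, and 16 in wild type, against 5.53%. The calls thus rest on both 40 h arrays together, and the only spread in the fit is that between 24 and 48 h.

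**Figure D2:**
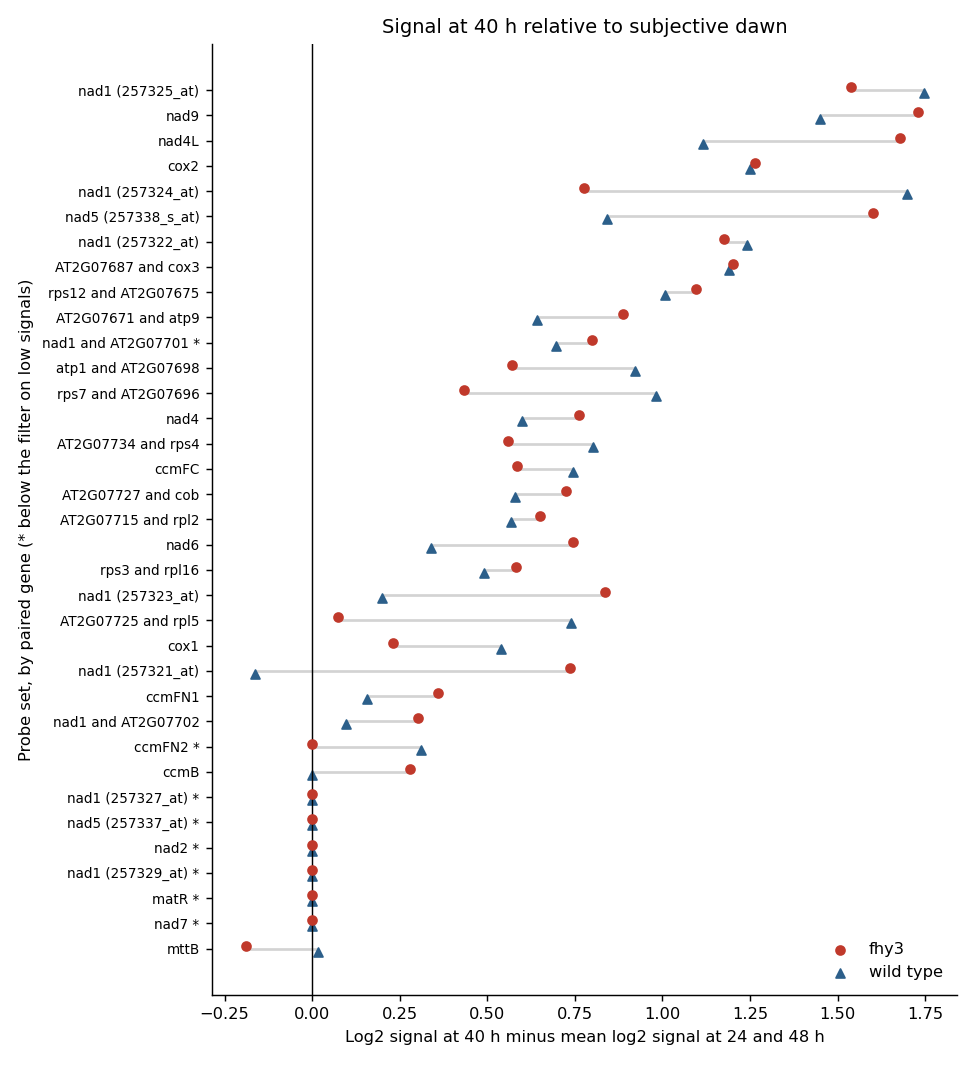
Log2 signal at 40 h minus the mean log2 signal at 24 and 48 h for each of the 35 probe sets, with *fhy3* as circles and wild type as triangles, ordered by the average of the genotypes. Probe sets are named by their paired genes, an asterisk marks those below the filter, and points at 0 have their 24, 40 and 48 h signals at the floor. Most probe sets lie to the right of 0 in both genotypes, with medians of 0.58 in *fhy3* and 0.58 in wild type.

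Whether the 40 h change differed between genotypes was tested directly. The difference between the change in *fhy3* and that in wild type had a median of 0.01 over the 35 and passed the test for none of the 27, against 0.0166% of all, with a smallest adjusted p of 0.324 from limma. At an unadjusted p under 0.05, 1 was larger and 2 were smaller in *fhy3*, against 14.0% of all probe sets in either direction. This does not show that the genotypes responded alike. The difference for single probe sets ran between −0.92, for the *nad1* probe set 257324_at, and 0.90, for the *nad1* probe set 257321_at.

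Complex I, the NADH dehydrogenase that takes electrons from NADH, held the probe sets with the largest changes. In 12 of its 17 probe sets 40 h was the highest time in both genotypes. These 12 include probe sets below the filter, such as 257337_at of *nad5*, which stayed under the floor on all arrays. *nad4*, a membrane subunit that forms part of the proton channels, read 1187, 1406, 2015 and 1189 in *fhy3* at 24, 32, 40 and 48 h, and 1189, 1549, 1817 and 1212 in wild type. The arrays of the genotypes lay close at every time, and the dawn arrays differed little within each. At 40 h *nad4* was higher by 0.68 on the log2 scale, averaged over genotypes (SE 0.07, adjusted p = 0.0377 from limma), a call lost under quantile normalisation (adjusted p = 0.0535). Its mean level differed between *fhy3* and wild type by 0.00 (SE 0.06, adjusted p = 0.988).

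*nad9*, a subunit of the arm of complex I that reaches into the matrix, read 36.7, 41.0, 120.4 and 35.9 in *fhy3*, and 73.0, 36.4, 219.1 and 88.0 in wild type. Its 40 h signal was 3.32 times the mean of the dawn signals in *fhy3* and 2.72 times in wild type. The average change was 1.59 on the log2 scale (SE 0.11, adjusted p = 0.0290 from limma), and in *fhy3* alone it was 1.73 with an adjusted p of 0.050009, which just missed the threshold. Without the filter the call of the average was lost (adjusted p = 0.0587). At 24, 40 and 48 h *nad9* read lower in *fhy3*, while at 32 h it read slightly higher.

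*nad5* and *nad4L* encode further membrane subunits of complex I. The *nad5* probe set that passed the filter read 39.4, 50.0, 94.5 and 24.7 in *fhy3*, and 52.9, 24.3, 102.4 and 61.7 in wild type. *nad4L*, named here after its values were seen, read 23.3, 37.7, 86.2 and 31.3 in *fhy3*, and 39.3, 21.0, 107.3 and 62.4 in wild type. Both were highest at 40 h in each genotype and lowest at 32 h in wild type, and neither average change passed the test (log2 1.22 for *nad5*, adjusted p = 0.0753; log2 1.40 for *nad4L*, adjusted p = 0.0718, from limma). *nad6*, another membrane subunit, read 27.97, 29.3, 43.1 and 23.7 in *fhy3*, and 32.7, 21.6, 43.4 and 36 in wild type, with the same order and smaller steps (log2 0.54, adjusted p = 0.0864). The second *nad5* probe set stayed under the floor on all arrays, at 9.67 or less in *fhy3* and 13.9 or less in wild type, and *nad7*, which read between 9.59 and 18.5 in *fhy3* and between 5.40 and 20.4 in wild type, did too.

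*nad1*, whose messenger RNA is joined by trans-splicing of separate transcripts, was read by 7 probe sets that the table pairs with it alone. Their mean signals lay between 6.19 and 52.8, 5 of them passed the filter, and 5 were highest at 40 h in both genotypes. These are not the same 5. Probe set 257321_at passed the filter but was highest at 32 h in both genotypes. In contrast, 257327_at was highest at 40 h in both but stayed under the floor on all arrays. Probe set 257322_at read 29.1, 30.7, 65.8 and 29.2 in *fhy3*, and 41.0, 21.96, 106.4 and 49.4 in wild type, and passed the test at 40 h (average log2 change 1.21, SE 0.11, adjusted p = 0.0317 from limma), though not without the filter (0.0722). Probe set 257325_at read 21.2, 10.4, 60.8 and 17.6 in *fhy3*, and 57.9, 53.5, 143.3 and 31.6 in wild type. Its steps were larger but so was the spread of its dawn arrays, and the change did not pass the test (log2 1.64, SE 0.28, adjusted p = 0.0653).

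Probe set 257324_at of *nad1* read 39.0, 23.6, 54.4 and 25.8 in *fhy3*, and 47.4, 33.1, 152.4 and 46.5 in wild type, so that the wild type array at 40 h stood well above every other. The change had an adjusted p of 0.0605. A further probe set of the same gene, 257321_at, named here after its values were seen, did not share the pattern. It read 31.0, 50.6, 46.4 and 25.02 in *fhy3*, and 47.6, 111.0, 35.9 and 34.0 in wild type, highest at 32 h in both. The probe sets of *nad1* thus disagree among themselves in the order of the times, and which stretch of the transcript each of them reads was not examined here.

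For complexes III and IV and ATP synthase most probe sets are shared with a chromosome 2 gene. *cox2*, a copper-binding subunit of the terminal oxidase, complex IV, is paired with a mitochondrial gene alone. It read 22.6, 37.8, 64.4 and 31.8 in *fhy3*, and 29.7, 60.4, 86.5 and 44.5 in wild type, lower in *fhy3* at 4 of 4 times and highest at 40 h in both. Neither its 40 h change (log2 1.26, SE 0.25, adjusted p = 0.0797) nor its difference in mean level (log2 −0.51, SE 0.21, adjusted p = 0.193) passed limma's test.

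*cox1*, the catalytic subunit of the same complex, had another order of times. It read 396.9, 415.5, 389.8 and 278.6 in *fhy3*, and 291.9, 426.9, 482.2 and 377.6 in wild type, so that 40 h was the highest time in wild type but not in *fhy3*. Its average change at 40 h was 0.38 on the log2 scale (SE 0.21, adjusted p = 0.324 from limma), and the difference between the genotypes in that change did not pass the test (adjusted p = 0.767).

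The shared probe sets are named here after their values were seen. That of *cox3*, the third core subunit of complex IV, read 26.1, 29.9, 59.9 and 25.97 in *fhy3*, and 31.8, 29.8, 85.6 and 44.3 in wild type, and just missed the threshold at 40 h (average log2 1.20, SE 0.16, adjusted p = 0.0504 from limma). That of *cob*, the cytochrome b of complex III, read 46.0, 46.2, 66.9 and 35.7 in *fhy3*, and 47.9, 22.2, 69.6 and 45.4 in wild type, highest at 40 h in both. The 40 h signals of *cob* lay close between genotypes, whereas at 32 h the wild type array was the lowest of the 8.

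For ATP synthase, the probe set of *atp1*, the alpha subunit of the catalytic head, read 260.8, 320.5, 364.02 and 230.7 in *fhy3*, and 286.7, 303.6, 554.1 and 298.1 in wild type (average log2 change at 40 h 0.75, SE 0.09, adjusted p = 0.0446 from limma). That of *atp9*, a subunit of the rotor ring in the membrane, read 280.9, 323.6, 596.3 and 370.4 in *fhy3*, and 475.2, 350.3, 760.01 and 498.7 in wild type, with *fhy3* lower at 4 of 4 times. Both were highest at 40 h in each genotype, and the change of *atp9* did not pass the test (log2 0.76, SE 0.14, adjusted p = 0.0753). The call of *atp1* was lost without the filter (0.0805) and with a floor at 20% of the mean (0.0801).

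Cytochrome c maturation, a pathway that attaches haem to cytochrome c, had 4 probe sets, of which 2 were highest at 40 h in both genotypes. *ccmFN1*, which encodes a part of the haem lyase, read 856.6, 991.7, 1011.5 and 725.04 in *fhy3*, and 716.4, 726.9, 761.8 and 651.0 in wild type. It was higher in *fhy3* at 4 of 4 times, and the groups overlap only through the *fhy3* array at 48 h. *ccmFC*, another part of the lyase, read 116.7, 100.8, 150.9 and 86.9 in *fhy3*, and 106.2, 124.0, 186.3 and 116.6 in wild type, highest at 40 h in both (average log2 0.66, SE 0.16, adjusted p = 0.103 from limma). *ccmFN2*, below the filter, read between 5.12 and 16.4 in *fhy3* and between 12.7 and 25.7 in wild type.

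*ccmB*, which encodes a membrane protein of an ABC transporter in the same pathway, read 8.92, 13.1, 25.1 and 17.1 in *fhy3*, and 13.6, 73.2, 15.3 and 15.4 in wild type. A single array, wild type at 32 h, stands apart from the other 7, of which 6 lie under the floor. *ccmB* did not follow its neighbours on the mitochondrial genome, *cox2* on one side and the pair *rps3* and *rpl16* on the other. The probe set shared by *rps3* and *rpl16*, which encode ribosomal proteins, read 372.8, 414.5, 518.6 and 322.1 in *fhy3*, and 475.2, 305.03, 604.4 and 390.3 in wild type.

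Of the 6 ribosomal protein probe sets, 5 were highest at 40 h in wild type, 3 in *fhy3* and the same 3 in both. That of *rps7*, a protein of the small subunit, was low at 22.2, 31.1, 31.2 and 24.1 in *fhy3*, and 32.1, 16.1, 62.03 and 30.8 in wild type, and passed the test (average log2 change at 40 h 0.71, SE 0.08, adjusted p = 0.0420 from limma). The 32 and 40 h arrays of *fhy3* hardly differ there. From dawn to 40 h the log2 change was 0.43 in *fhy3* and 0.98 in wild type, so that the average leans more on wild type. The call of *rps7* was lost without the filter (adjusted p = 0.0648) and with the higher floor, under which all of its signals lie. That of *rps4* was instead highest at 32 h in both, with 50.8, 96.9, 84.7 and 65.3 in *fhy3*, and 78.4, 152.9, 133.5 and 74.9 in wild type.

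*mttB*, a subunit of a twin-arginine protein transporter, was the single probe set whose average 40 h change lay below 0 (log2 −0.09, SE 0.23, adjusted p = 0.838 from limma). It read 160.7, 148.9, 112.7 and 102.6 in *fhy3*, and 167.2, 76.2, 153.2 and 137.1 in wild type. In *fhy3* its arrays were ordered by time with the highest first, and in wild type the array at 32 h was the lowest. *matR*, which encodes an intron maturase, was close to the bottom of the scale, at 3.04 or less in *fhy3* and 2.90 or less in wild type, under the floor on all arrays.

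**Figure D3:**
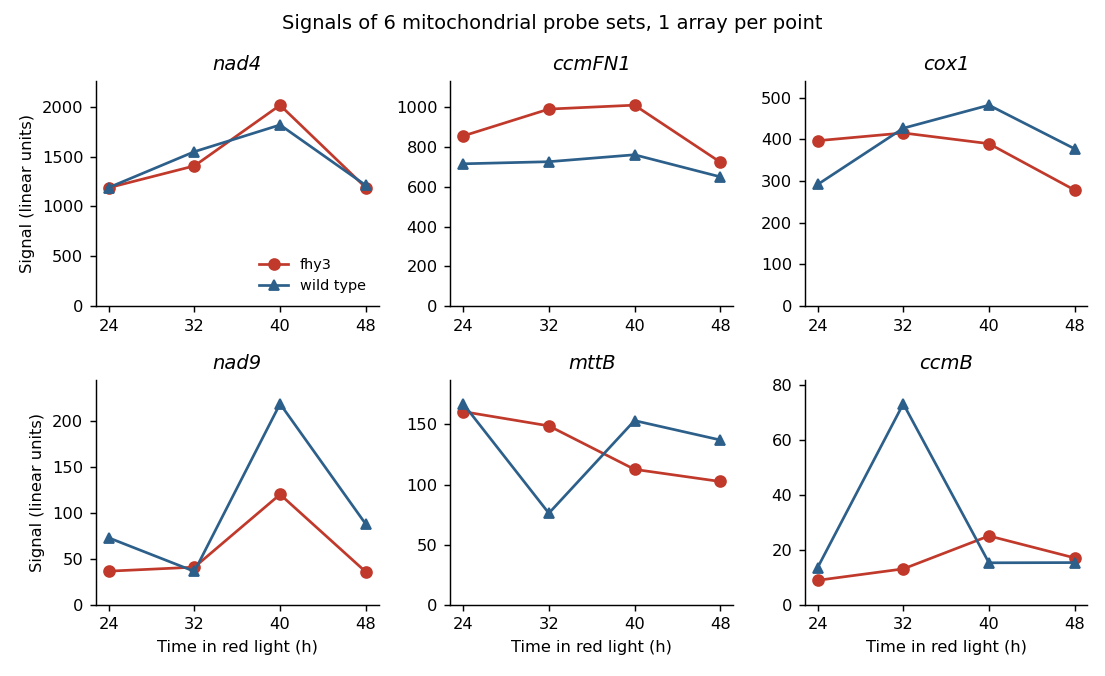
Signals (linear units, each axis starting at 0) of 6 probe sets paired with a single mitochondrial gene against time in constant red light (h), with *fhy3* as circles and wild type as triangles and 1 array per point. *nad4* and *nad9* stand highest at 40 h in both genotypes, *cox1* only in wild type, *mttB* in neither, and *ccmB* stands out on the wild type array at 32 h alone, at 73.2.

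At 32 h the genotypes were ordered differently. Of the 35 probe sets, 4 had their lowest signal at 32 h in *fhy3*, where 21.0% of all probe sets did, and 17 in wild type, where 31.2% did. In 10 the 32 h array read above both dawn arrays in *fhy3* and below both in wild type, against 12.7% of all probe sets, and the opposite held for 1, against 10.7%. The 10 were *nad4L*, *nad5*, *nad6*, *nad7*, *nad9*, a *nad1* probe set, and the shared probe sets of *cob*, *cox3*, *rps7* and *rps3* with *rpl16*. The change at 32 h had a median of 0.17 in *fhy3* and of 0.00 in wild type, where 14 probe sets were above 0 and 14 below.

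None of these differences passed the test. Limma called 0 of the 27, and 0% of all probe sets, for the 32 h change in either genotype. At an unadjusted p under 0.05, 5 were higher at 32 h in *fhy3*, against 4.82% of all, and in wild type 6 were higher, against 12.5%, and 9 lower, against 15.5%. For the difference between the genotypes in that change the smallest adjusted p was 0.167. At an unadjusted p under 0.05, 9 changes were larger in *fhy3*, against 9.90% of all probe sets, and 2 were smaller, against 6.36%. *nad9* is an example, with a difference of 1.32 (SE 0.22, adjusted p = 0.181), and *nad5* another, with 1.91 (SE 0.46, adjusted p = 0.225). As each 32 h value is 1 array, the wild type array and the time cannot be told apart.

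Between the genotypes, more probe sets read lower than higher in *fhy3* at 24, 40 and 48 h. Limma called 0 of the 27 for the difference at dawn, the mean of the 24 and 48 h arrays, against 0.0718% of all probe sets (smallest adjusted p = 0.143), 0 at 32 h, against 0% (0.0604), and 0 at 40 h, against 0.0221% (0.101). Of the 35 probe sets, *fhy3* read lower than wild type in 27 on the 24 h arrays, where 49.3% of all probe sets did, in 15 on those of 32 h (48.5% of all), in 25 on those of 40 h (47.7%) and in 28 on those of 48 h (50.6%). The median log2 difference was −0.14, 0.00, −0.16 and −0.35 in the order of the times, while over all probe sets tested it lay between −0.01 and 0.03. At 24, 40 and 48 h together 20 of the 35 read lower in *fhy3*, against 19.2% of all. With 32 h included, 7 read lower at 4 of 4 times, against 12.7% of all, and 3 read higher, against 14.0%. The 7 were *cox2*, the *nad1* probe sets 257324_at and 257325_at, and the shared probe sets of *atp9*, *rpl2*, *rpl5* and *rps4*. In 1, that of *rpl5*, all *fhy3* arrays read below all wild type arrays, against 4.49% of all probe sets.

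The chloroplast probe sets had medians of −0.07, −0.09, −0.27 and −0.34 at the same times, so a lower signal in *fhy3* at 40 and 48 h was not seen for mitochondrial probe sets alone. Whether the sets differ was not tested.

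**Figure D4:**
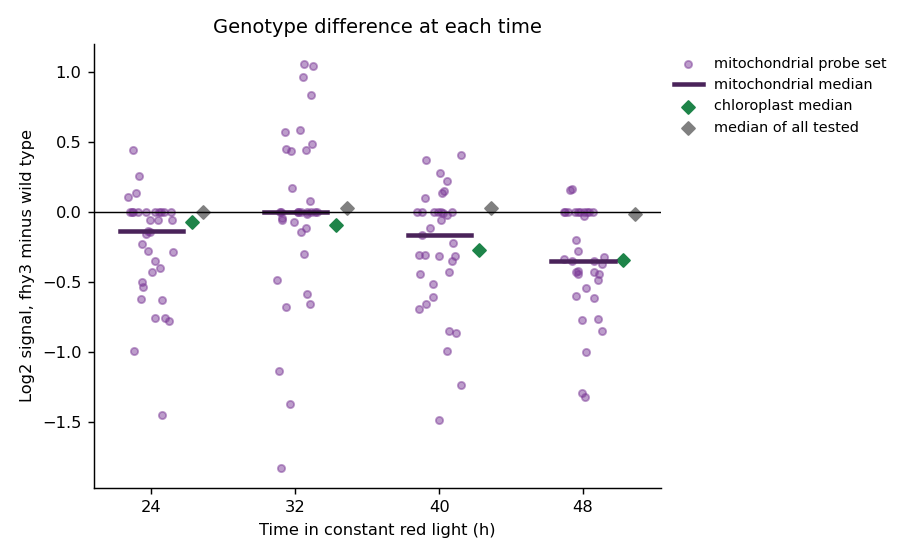
Log2 signal of *fhy3* minus that of wild type at each time in constant red light (h), after the floor, with 1 point for each of the 35 mitochondrial probe sets and a bar for their median (−0.14, 0.00, −0.16 and −0.35). Diamonds give the medians of the chloroplast probe sets and of all probe sets tested. The points spread to both sides at 32 h and lie mostly below 0 at the other times.

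In mean level, which weights subjective dawn, 32 h and 40 h equally, 23 of the 35 were below 0, 7 above and 5 at 0, with a median of −0.12 against 0.02 over all probe sets tested. Limma called 1 of the 27, *ccmB* (log2 −0.51, SE 0.06, adjusted p = 0.0399), against 5.96% of all probe sets in either direction and 2.46% lower in *fhy3*. With an unadjusted p under 0.05 there were 10 lower in *fhy3*, against 14.0% of all, and 1 higher, against 17.8%. The 24 and 48 h signals of *ccmB* lay under the floor in both genotypes and were set equal. The SE and adjusted p of *ccmB* thus rest on no measured spread between these arrays. Only in wild type did the mean signal of *ccmB* reach the filter, through the array at 32 h. The call of *ccmB* comes from that same array. Its log2 difference was 0.00 at dawn, −1.82 at 32 h and 0.28 at 40 h, and without the floor the adjusted p was 0.154. Of the rest, *nad9* came nearest (log2 −0.61, SE 0.10, adjusted p = 0.0503) and passed under quantile normalisation, centring, a stricter filter and no floor, with adjusted p between 0.0192 and 0.0405. It did not pass without the filter (0.0986), with a floor at 20% of the mean (0.0643), with time as a block (0.190) or with genotype alone (0.558).

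The *nad1* probe set 257325_at had the lowest difference, −1.21 (SE 0.24, adjusted p = 0.0665 from limma), and 257324_at followed with −0.85 (SE 0.17, adjusted p = 0.0685). *ccmFN1* had the highest, 0.35 (SE 0.10, adjusted p = 0.103). None of the 3 passed the test. Under other settings 257325_at passed with centring, without the floor and with a floor at 20% of the mean, and 257324_at with centring and with that higher floor alone. Neither passed under quantile normalisation, without the filter, with time as a block or with genotype alone. *ccmFN1* passed under none. Genotype labels can be exchanged within the 4 times in 16 ways, so that an exact two-sided permutation test of a single probe set cannot give a p below 0.125.

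The fitted tests of any difference between dawn, 32 h and 40 h called 0 of the 27 in *fhy3* and 0 in wild type, against 0.0166% and 0% of all probe sets. At an unadjusted p under 0.05 they gave 16 in *fhy3*, against 19.7% of all probe sets, and 21 in wild type, against 28.1%. For a difference between genotypes in these patterns, 0 were called and 9 had an unadjusted p under 0.05, against 18.5% of all.

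The probe sets moved together across the 8 arrays to varying degrees. Over the 351 pairs of the 27 tested probe sets the median Pearson correlation of log2 signals was 0.54, between −0.81 and 0.99, and 297 pairs were above 0. The same median over the chloroplast probe sets was 0.36. All pairs share arrays and scaling, and no test was made. The probe set shared by *cox3* was the most like the mean of the others (r = 0.98), followed by *nad9* (0.95) and the shared one of *atp1* (0.94). *mttB* (0.15), *ccmFN1* (0.10), the *nad1* probe set 257321_at (0.00) and *ccmB* (−0.15) were the least like it.

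Nuclear genes of mitochondrial function were set beside these for the same times. Lists of 74 such genes covered alternative respiration, nuclear subunits and assembly factors of the respiratory chain, carriers and chaperones, and the transcription, RNA processing and upkeep of the mitochondrial genome, and 22 of them could be named on the array. These were 5 of alternative respiration, 12 of the respiratory chain and 5 of transcription, RNA processing and upkeep. Of the 13 carriers, porins and chaperones 0 could be named, so that list was not examined. None of the 22 was highest at 40 h in both genotypes, against 9.85% of all probe sets. Limma called 0 of them for the average 40 h change, against 3.67% of all probe sets, and 2 had an unadjusted p under 0.05, against 26.4%. It called 0 in mean level, against 5.96%, and 7 had an unadjusted p under 0.05, against 31.8%. Of the 12 nuclear genes of the respiratory chain, 11 had a higher fitted mean level in *fhy3* than in wild type, also under quantile normalisation and centring. The median log2 difference was 0.30, against 0.02 over all probe sets tested, and none passed the test. The share of all probe sets with a higher fitted mean level in *fhy3* is not given here.

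Succinate dehydrogenase is complex II, which in Arabidopsis is encoded wholly in the nucleus. *SDH1-1*, its flavoprotein subunit, read 1087, 1138, 1335 and 1264 in *fhy3*, and 730.1, 781.8, 752.5 and 917.2 in wild type. The difference, the largest among the 12 genes, did not pass the test (log2 0.63, SE 0.12, adjusted p = 0.0645 from limma). The summed signal of the 12 genes, in which the brightest weigh most, lay between 18992 and 21325 in *fhy3* and between 15446 and 17565 in wild type. No sum over other probe sets is given beside it, and whether the sums differ between genotypes was not tested.

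*NDB2*, an alternative NADH dehydrogenase that bypasses complex I, read 312.8, 458.4, 337.9 and 444.7 in *fhy3*, and 246.9, 193.5, 221.5 and 316.5 in wild type (log2 0.76 for the mean level, SE 0.18, limma adjusted p = 0.0818). It read higher in *fhy3* at 4 of 4 times. AT5G15700, a phage-type RNA polymerase of the organelles, read 72.5, 39.6, 45.3 and 44.5 in *fhy3*, and 31.5, 18.5, 60.4 and 50.3 in wild type, with no settled direction (log2 0.35, SE 0.27, adjusted p = 0.420).

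**Figure D5:**
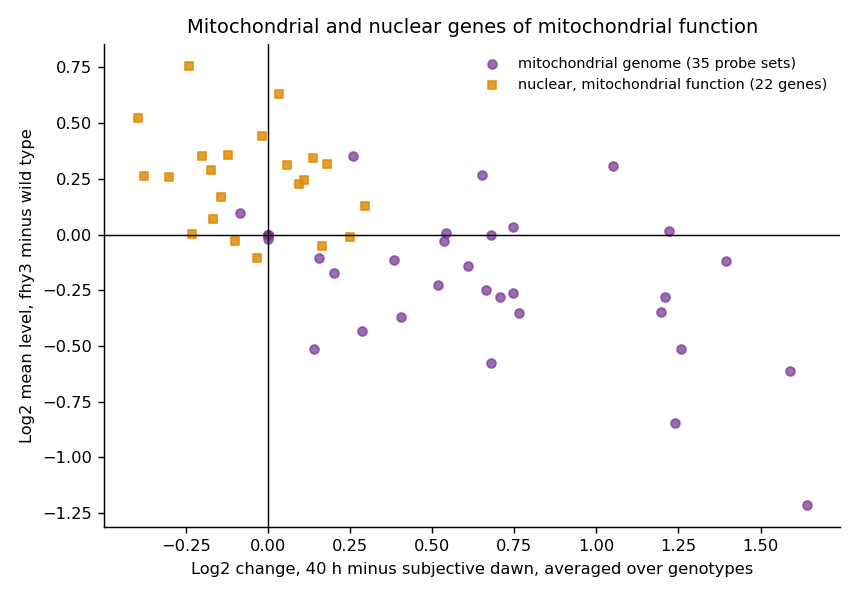
Log2 mean level of *fhy3* minus wild type against the log2 change from subjective dawn to 40 h averaged over genotypes, for the 35 mitochondrial genome probe sets (circles) and 22 nuclear genes of mitochondrial function (squares). The mitochondrial points extend to the right, with a median change of 0.61, and mostly below 0 on the vertical axis, while the nuclear points gather around 0 on the horizontal axis.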

How the data were processed

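Total RNA of whole seedlings was labelled and hybridised to Affymetrix ATH1 arrays, 1 for each genotype and time. The authors deposited an intensity for each probe set, a linear signal already scaled between arrays and not centred, and no further scaling was applied. Either MAS5, which the submitters' notes list with no version, or D-chip, which the paper's methods describe, made these signals. That choice, and whether other arrays shared the scaling, could not be settled from the sources. Every deposited column was used.

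Probe sets were paired with genes by the platform's annotation, whose older gene identifiers were matched to the mitochondrial genes of a RefSeq gene table (TAIR10.1) by symbol or synonym for 36 entries. The 8730 probe sets that the annotation does not list are unnamed here, and probe sequences were not examined.

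Log2 signals, floored at 20.7, were fitted with limma 3.58.1 in R 4.3.3 with 6 coefficients (genotype by subjective dawn, 32 h and 40 h) on 8 arrays, and p-values were adjusted by the Benjamini-Hochberg method over the 18108 probe sets tested at 0.05. The 4638 others lay below the filter. The 2 residual degrees of freedom come only from 24 against 48 h, so p-values measure that spread and no biological replication, and the number of arrays limits the precision. The median residual SD was 0.13 over all probe sets tested and 0.18 over the mitochondrial ones among them, with 1.98 prior degrees of freedom. The fit was tested on simulated data. The probe sets and gene lists were chosen with earlier results of these data known. Named genes were the 2 brightest probe sets of each role with a single gene, the 4 highest and the 4 lowest mean-level differences, the 3 smallest p-values for mean level and for the difference in pattern, and the largest difference of each nuclear list. Alternatives changed the scaling, centring, filter, floor, model, members and times.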

Additional observations from a re-analysis of the deposited data

How the results depend on the processing

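No pairing by replicate number was possible because the labels number every sample replicate 1, so that the groups share fewer than 2 replicate numbers. The genotypes can be paired by time, and that fit is given as time as a block. Counts below are of mitochondrial probe sets called by limma. The share of all probe sets called under each alternative is not given here. A setting that raises calls everywhere thus cannot be told from one that raises them in these probe sets. Under quantile normalisation they were 3 in mean level and 1 for the 40 h change in *fhy3*. Centring each array on the median of tested probe sets gave 5 in mean level, 14 for the average 40 h change, 5 for that in *fhy3*, 4 for that in wild type, 6 for the 32 h change in wild type, and 2 in *fhy3* and 8 in wild type for any difference between times. Without the filter the counts were 2 in mean level, 3 for the 40 h change in *fhy3* and 3 in wild type, 2 for the 32 h change in wild type, 3 in *fhy3* and 4 in wild type for any difference between times, and 2 for a difference in pattern between genotypes. A filter at 20% of the mean gave 2 in mean level, 2 for the 40 h change in *fhy3* and 2 in wild type, 1 for the 32 h change in wild type, and 1 in *fhy3* and 2 in wild type for any difference between times. Without the floor there were 2 in mean level, 8 for the average 40 h change, 1 for that in *fhy3*, 3 for the 32 h change in wild type and 3 for any difference between times in wild type.

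A floor at 20% of the mean, 82.7, sets many arrays of these low probe sets equal. It gave 7 calls in mean level, 8 for the average 40 h change, 3 for that in *fhy3* and 7 in wild type, 1 for the 32 h change in *fhy3* and 3 in wild type, 3 in *fhy3* and 9 in wild type for any difference between times, and 7 for a difference in pattern. With that floor the median 40 h change was 0 in *fhy3*, 0.0171 in wild type and 0.00703 on average, and the median difference at dawn was 0. With time as a block 0 were called in mean level, and with genotype alone 0. With single-gene members the median 40 h change was 0.31 in wild type and 0.38 on average, with 3 called. With the members that passed the filter the median 32 h change in wild type was −0.33. Apart from the floor and fewer members, the cause was not tested.

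The counts by signal order moved as follows. The 20% filter leaves fewer than the 35 probe sets and the single-gene setting leaves 23, so counts under these settings are not out of 35. A lower count there is thus not a smaller share. The 20% filter left *nad4*, *nad9*, *cox1*, *ccmFN1*, *ccmFC*, *mttB* and the probe sets of *atp1*, *atp9*, *rps4* and *rps3* with *rpl16*. Of those left, all but *cox1*, *mttB* and *rps4* were highest at 40 h in both genotypes. Highest at 40 h were 7 in *fhy3*, 8 in wild type and 7 in both with the 20% filter, 10, 16 and 9 with the 20% floor, and 16, 17 and 15 with single-gene members. Lower in *fhy3* at 4 of 4 times were 11 under quantile normalisation, 2 with the 20% filter, 1 with the 20% floor and 3 with single-gene members, and 20 without the arrays at 32 h. Higher at 4 of 4 times were 1 with the 20% filter, 1 with the 20% floor and 5 without the arrays at 48 h.

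The mean-level difference changed sign for *nad4* (0.00641) and *mttB* (−0.0101) under quantile normalisation. For *nad5* it was −0.12 under quantile normalisation, −0.0014 with centring, −0.0386 with the 20% floor and −0.21 with time as a block or genotype alone. For *nad6* it was −0.0788 under quantile normalisation, −0.0134 with centring and −0.0998 with time as a block or genotype alone. At 40 h the average change of *nad4* lost its call under quantile normalisation (adjusted p = 0.0535), and those of *nad9* (0.0587) and *nad1* 257322_at (0.0722) without the filter. The alternatives to the 40 h average and to its order were chosen after seeing the data. The other 136 medians and counts lay within the dawn-array spread or within 1.5 times of the value reported, which does not say that the same probe sets were called. Of the 5 called for the average 40 h change, 1 was among the 4 called without the filter, 3 among the 5 with the 20% filter, 4 among the 6 under quantile normalisation, 5 with centring, 5 without the floor and 3 with the 20% floor. With the 20% filter the *nad1* probe set and that of *rps7* were not tested, as both lay below it.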
